A study of Homo sapiens with 12 samples.

Results

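Pyruvate was given at 2 mM for 24 h to K562 cells, an established human line from chronic myelogenous leukaemia with embryonic and fetal globin expression, and messenger RNA was sequenced from 4 treated and 4 untreated libraries. These 8 of the 12 libraries of the series were taken by their labels, and 13598 of the 17786 genes in the count table passed the filter on low counts and were tested. The remaining 4 libraries came from K562 cells given 2 mM alpha-ketobutyrate (AKB) for 24 h. All cells were kept in RPMI-1640 medium with 5% fetal bovine serum, 2 mM glutamine and antibiotics. The labels name no vehicle for the untreated cells. They also leave it unsaid whether replicate libraries were grown as separate cultures, and the p-values therefore reflect only spread among these samples, which may be technical. K562 is a single cell line, and no other line was included.

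Pyruvate enters cells through monocarboxylate carriers. In the cytosol lactate dehydrogenase reduces it to lactate and turns NADH into NAD+, and in mitochondria pyruvate dehydrogenase and pyruvate carboxylase pass it to the citric acid cycle. Pyruvate in the medium is known as an electron acceptor that lets cells with limited respiration keep making aspartate. When amino acids run short, or mitochondria or the endoplasmic reticulum (ER) are stressed, kinases that phosphorylate eIF2 raise translation of the transcription factor ATF4, which induces genes of serine, one-carbon and asparagine synthesis, amino acid import and tRNA charging. The data below set these programmes, and those of pyruvate handling, the ER, glycolysis and the erythroid lineage, against untreated cells.

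The libraries held 15353200 to 21301073 counts, and levels are given as CPM (counts scaled to a common library size) on TMM-scaled library sizes. Pyruvate replicates 3 and 4 stood apart from the other 10 libraries. Relative to the mean of all libraries, the slope of log2 CPM along transcript GC content was 0.331 and 0.354 per 10 points of GC in these libraries, against −0.153 to 0.014 in the others. Along transcript length the slope was −0.107 and −0.0802 per log2 unit of length in these 2 libraries, against −0.0114 to 0.0421 in the others. These 2 libraries also had the largest totals, 19891231 and 21301073 counts. Counts of the 2 libraries differed from each other by a chi-square of 5.39 per degree of freedom, and from those of pyruvate replicates 1 and 2 by 54.32 to 68.47, while replicates 1 and 2 differed by 13.33. All 11 erythroid identity genes fixed for K562 were expressed, with HBG1 at 2347 to 3343 CPM. Among markers of other cell types, most lymphoid and granulocyte genes had no row or fell under the filter, but LYZ stood at 28.14 to 37.27 CPM. Of the epithelial markers, the keratin gene KRT8 stood at 153.6 to 321 CPM, KRT18 at 173.2 to 234.6, KRT19 at 99.13 to 135.9 and EPCAM at 80.44 to 106.1 CPM. Pyruvate libraries 3 and 4 had the highest KRT8 values (321 and 312 CPM), and its rise (log2 0.67, adjusted p = 0.0404) was not called without them (adjusted p = 0.146). Since this is bulk RNA, fewer cells expressing a gene and less RNA of it per cell cannot be told apart.

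Calls were made with edgeR's quasi-likelihood test, taking genes whose p, adjusted over all genes tested, was below 0.05. Without correction for GC content, 139 genes (1.02%) rose and 126 (0.927%) fell with pyruvate. At an unadjusted p below 0.05, 2035 of the 13598 genes were higher and 1892 lower, which is the background for the unadjusted counts given below. A call was then checked in 2 ways. The test was repeated with an offset that removes each library's smooth trend along transcript GC content, and pyruvate replicates 1 and 2 had to lie on the called side of all 4 untreated libraries. With the GC-content offset 672 genes (4.94%) rose and 570 (4.19%) fell. Replicates 1 and 2 were both above the untreated range at 11.4% of genes and both below it at 11.3%. Of the first calls, 131 rises and 116 falls were also called with the offset, and 136 and 125 passed the check in replicates 1 and 2. Both checks were passed by 128 rises (0.941%) and 115 falls (0.846%), of which 23 and 14 changed at least 2-fold. No call failed both checks. SHMT2, SLC7A5, SESN2, GDF15, INHBE, HBA2, HSPA5, HSP90B1, RPL36, BCAT1, further ER chaperones and genes listed only as called with the offset lie outside the rule for named genes and were chosen after their values were seen.

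The rises and falls differed in how evenly the 4 pyruvate libraries carried them. Over the 128 rises that passed both checks, the median log2 change was 0.28 and 0.43 in pyruvate replicates 1 and 2, and 0.77 and 0.73 in replicates 3 and 4. With GC-corrected levels it was 0.27 and 0.42 against 0.67 and 0.62. Over the 115 falls, the medians were −0.45, −0.42, −0.59 and −0.60 before correction and −0.42, −0.42, −0.53 and −0.52 after it. With pyruvate replicates 3 and 4 left out, 21 genes (0.151%) rose and 78 (0.56%) fell, and with the GC-content offset as well 75 (0.538%) rose and 121 (0.868%) fell. Of the changes that passed both checks, 7 rises and 54 falls were called in replicates 1 and 2 alone, and 33 rises and 73 falls there with the offset. The count of calls also rested on single libraries. Without untreated replicate 1, 2 or 3 only 2, 1 and 1 rises and 31 to 33 falls were called, without untreated replicate 4 it was 87 and 88, without pyruvate replicate 3 or 4 it was 3 rises and 44 falls, and without pyruvate replicate 1 or 2 it was 1407 and 1931 rises and 1224 and 1680 falls. Fitted on the 8 libraries alone, without those given AKB, 2 rises and 14 falls were called, or 274 and 262 with the offset. With the GC-content offset the 8 exclusions of single libraries left 188 to 1122 rises and 215 to 1045 falls.

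**Figure D1:**
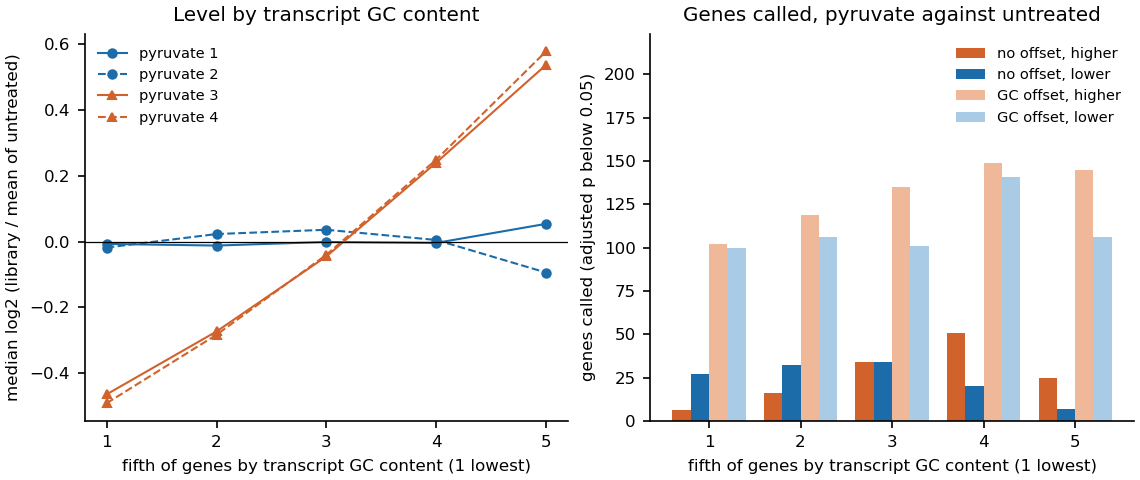
Left, the median log2 ratio of each pyruvate library to the mean of the untreated libraries (y axis) in quintiles of genes by transcript GC content (x axis). Pyruvate 3 runs from −0.464 to 0.537 and pyruvate 4 from −0.491 to 0.578, while pyruvate 1 and 2 stay within −0.094 to 0.054. Right, the number of genes called higher or lower with pyruvate per quintile, without and with the GC-content offset. Without the offset the quintiles hold 6, 16, 34, 51 and 25 rises and 27, 32, 34, 20 and 7 falls, and with it 102, 119, 135, 149 and 145 rises and 100, 106, 101, 141 and 106 falls.

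Enzymes of serine synthesis and of mitochondrial folate metabolism were among the falls. All 3 serine synthesis enzymes were lower with pyruvate in every library of the group. PSAT1, the aminotransferase of the pathway (GENCODE 29 on GRCh38, chromosome 9, 78297143 to 78330093), stood at 213, 207, 209.7 and 196 CPM in untreated libraries and at 97.7, 97.3, 82.8 and 75.9 CPM with pyruvate. The groups do not overlap, and the fall was 2.33-fold (log2 −1.22, SE 0.0814, adjusted p = 3.41e-05). PHGDH, which takes the first step from glycolytic 3-phosphoglycerate, stood at 53.5, 54.5, 51.0 and 51.2 CPM against 30.1, 24.8, 37.9 and 33.0 CPM. Here replicates 1 and 2 were the lower pair, and the log2 change was −0.74 over all 4 (adjusted p = 0.00580) and −0.94 in replicates 1 and 2 alone (adjusted p = 0.000231). PSPH, the phosphatase of the last step, gave 39.7, 40.5, 39.97 and 34.5 against 32.8, 33.5, 25.7 and 27.2 CPM. It missed the threshold without the offset (log2 −0.38, adjusted p = 0.0592) and passed with it (−0.41, adjusted p = 0.0253).

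Of 18 tested genes of folate one-carbon metabolism and glycine cleavage, 3 fell and 0 rose, and with the GC-content offset 5 fell. The 3 were ALDH1L2, MTHFD1L and MTHFD2, all of the mitochondrial branch. ALDH1L2, which oxidises 10-formyltetrahydrofolate with NADP+, stood at 35.9, 39.8, 35.8 and 34.2 CPM in untreated libraries and 19.2, 16.6, 15.5 and 14.2 CPM with pyruvate. No pyruvate library reached the lowest untreated one, and the fall was 2.23-fold (adjusted p = 9.58e-05). MTHFD2, a methylenetetrahydrofolate dehydrogenase, fell 1.42-fold and MTHFD1L, the formate-releasing synthetase, 1.31-fold (adjusted p = 0.0140 and 0.00691). The offset added SHMT2, the mitochondrial serine hydroxymethyltransferase, with 166 and 165 CPM in pyruvate replicates 1 and 2 against 202 to 214 CPM untreated and 209 and 212 CPM in replicates 3 and 4 (log2 −0.32, adjusted p = 0.000273 with the offset). SHMT2 was also called in replicates 1 and 2 alone. The median log2 change of the whole list was −0.13, against −0.01 over all genes tested.

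Of 12 tested enzymes of asparagine, aspartate, alanine and glutamate metabolism, 2 fell (ASNS and GPT2) and 0 rose, 4 fell with the offset and 1 in replicates 1 and 2 alone, and the median log2 change was −0.13. ASNS, asparagine synthetase (chromosome 7, 97852118 to 97872542), stood at 416, 384, 390.0 and 350.5 CPM in untreated libraries and 184, 198, 147 and 147 CPM with pyruvate, a 2.28-fold fall (log2 −1.19, SE 0.0959, adjusted p = 9.58e-05). The lowest untreated value was well above the highest pyruvate value. Its pseudogene ASNSP1, whose sequence resembles ASNS so that reads may be shared, gave 6.06, 5.88, 5.96 and 5.25 against 2.72, 2.23, 2.02 and 1.96 CPM. GPT2, which makes alanine from pyruvate in mitochondria, stood at 13.7, 13.0, 13.8 and 10.6 CPM against 7.402, 8.42, 8.89 and 9.38 CPM (log2 −0.58, adjusted p = 0.0361), and was not called in replicates 1 and 2 alone (adjusted p = 0.0515). PCK2, the mitochondrial enzyme that makes phosphoenolpyruvate from oxaloacetate, stood at 58.4, 59.0, 58.7 and 58.6 CPM in untreated libraries, at 28.3 and 28.0 CPM in pyruvate replicates 1 and 2, and at 40.8 and 43.5 CPM in replicates 3 and 4. All 4 were below the untreated range. Its transcripts are GC-rich (61.6%), and the log2 change went from −0.74 without the offset to −1.04 with it and −1.06 in replicates 1 and 2 alone (adjusted p = 0.0206, 9.59e-07 and 1.97e-05). BCAT1, the cytosolic branched-chain aminotransferase, fell 1.51-fold (adjusted p = 0.0450). It was chosen for the promoter motif described below.

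**Figure D2:**
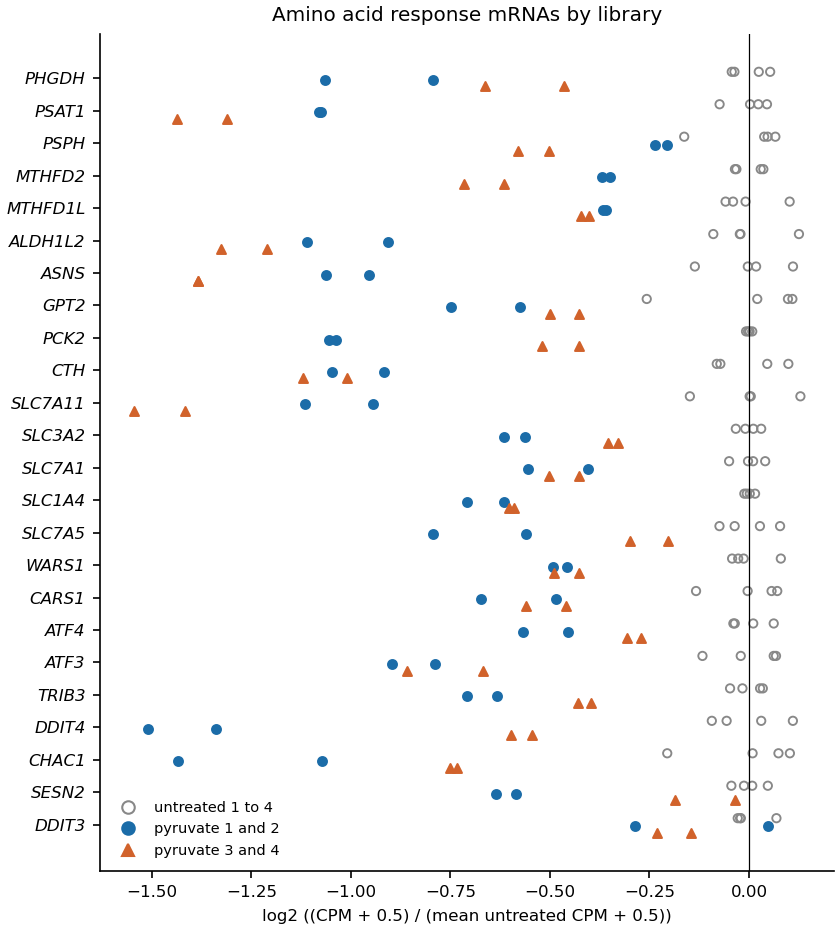
The x axis gives the log2 ratio of each library's CPM (plus 0.5) to the mean of the untreated libraries for 24 mRNAs of amino acid metabolism and its stress response. Open circles are untreated libraries, filled circles pyruvate replicates 1 and 2, and triangles replicates 3 and 4. Pyruvate libraries lie to the left of the untreated ones for every gene shown except DDIT3 and SESN2, and for GC-rich genes such as PCK2, DDIT4 and CHAC1 replicates 1 and 2 lie furthest left.

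Several carriers that bring amino acids into the cell fell as well. Of 17 tested, 6 fell and 0 rose, 10 fell with the GC-content offset, and the median log2 change was −0.28. SLC7A11, the cystine-glutamate exchanger, stood at 113, 103, 104 and 93.1 CPM in untreated libraries and 53.4, 47.4, 38.4 and 35.0 CPM with pyruvate. The groups do not overlap, with a fall of 2.37-fold without and 1.96-fold with the offset (adjusted p = 0.000366 and 9.59e-07). Its partner chain SLC3A2 fell 1.38-fold, the neutral amino acid carrier SLC1A4 1.55-fold and the cationic amino acid carrier SLC7A1 1.39-fold (adjusted p = 0.00859, 0.000219 and 0.00290). All 3 were also called in replicates 1 and 2 alone. The offset added SLC7A5, SLC1A5, SLC6A9 and SLC38A2. SLC7A5, the large neutral amino acid carrier that pairs with SLC3A2, gave 339, 364, 348 and 377 CPM untreated and 242, 206, 290.0 and 310.1 CPM with pyruvate. The groups do not overlap, yet the log2 change moved from −0.45 (adjusted p = 0.0569) to −0.72 with the offset (adjusted p = 5.11e-06). SLC7A5 was also called in replicates 1 and 2 alone. Cystathionine gamma-lyase, CTH, which makes cysteine, was the only 1 of 16 transsulfuration and glutathione genes called without the offset, with 33.9, 30.1, 32.6 and 29.9 against 16.5, 15.0, 15.5 and 14.3 CPM (log2 −1.04, adjusted p = 9.58e-05). With the offset CBS and AHCY fell too.

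Among 20 cytosolic aminoacyl-tRNA synthetases, 4 fell and 0 rose. They were WARS1, CARS1, MARS1 and GARS1, which charge tryptophan, cysteine, methionine and glycine, and they fell 1.38-, 1.46-, 1.36- and 1.37-fold (adjusted p = 0.00168, 0.00284, 0.00494 and 0.0206). WARS1 stood at 281 to 306 CPM untreated and 206 to 215 CPM with pyruvate, so all 4 pyruvate libraries were alike. With the offset 10 fell and HARS1 rose (log2 0.39, adjusted p = 0.0151), and in replicates 1 and 2 alone 5 fell. MARS1 overlaps DDIT3 on the opposite strand and the kit is not stated to keep strand, so reads in the overlap cannot be assigned. ALDH1L2, PCK2, LSM7 and OST4 also overlap a gene on the opposite strand. Of 16 mitochondrial synthetases, 0 were called without the offset (with unadjusted p below 0.05, 3 higher and 3 lower by edgeR), and with it 4 fell (PARS2, TARS2, WARS2, YARS2) and RARS2 rose. The cytosolic list had a median log2 change of −0.20 and the mitochondrial list of −0.05.

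Most transcription factors and feedback genes of the stress response fell. Of 14 tested, 8 fell and 0 rose, 10 fell with the GC-content offset, and the median log2 change was −0.46, or −0.64 in replicates 1 and 2 alone. ATF4 itself stood at 356, 332, 333 and 344 CPM untreated and 230.1, 249, 282 and 276 CPM with pyruvate. It was lowest in replicates 1 and 2, and its log2 change was −0.40 without and −0.57 with the offset (adjusted p = 0.0174 and 8.62e-05). ATF3, a stress-induced repressor, gave 16.1, 17.1, 15.0 and 17.1 against 9.24, 8.54, 10.1 and 8.77 CPM, a 1.78-fold fall (adjusted p = 0.00114). CEBPG, a dimer partner of ATF4, fell 1.44-fold and TRIB3, a pseudokinase induced by ATF4, 1.45-fold (adjusted p = 0.00212 and 0.00447).

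DDIT4, an inhibitor of mTORC1, split the pyruvate libraries into pairs. It stood at 156, 171, 161 and 180.3 CPM untreated, at 65.7 and 58.3 CPM in pyruvate replicates 1 and 2 and at 114 and 110.1 CPM in replicates 3 and 4. All 4 were below the untreated range, and the log2 change was −0.94 without the offset, −1.18 with it and −1.43 in replicates 1 and 2 alone (adjusted p = 0.0317, 2.54e-05 and 7.29e-06). CHAC1, which degrades glutathione, gave 9.20, 9.85, 7.86 and 9.65 CPM against 4.09, 3.07, 5.30 and 5.23 CPM (log2 −1.04, adjusted p = 0.0437, and 0.0515 in replicates 1 and 2 alone). STC2, a secreted glycoprotein, fell 1.80-fold and INHBE, an activin subunit gene, 1.73-fold (adjusted p = 0.0206 and 0.0443). SESN2 and GDF15 were not called over all 4 libraries without the offset. Both were called with the offset, and also in replicates 1 and 2 alone. SESN2, a leucine sensor upstream of mTORC1, stood at 59.8, 61.5, 57.6 and 58.9 CPM untreated, 39.4 and 38.1 CPM in replicates 1 and 2 and 58.0 and 52.2 CPM in replicates 3 and 4. GDF15, a stress cytokine, gave 27.5, 26.5, 25.6 and 30.2 against 18, 15.5, 27.3 and 24.9 CPM. Their log2 changes with the offset were −0.59 and −0.69 (adjusted p = 9.27e-05 and 0.00358), against −0.34 and −0.35 without it (adjusted p = 0.106 and 0.179).

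DDIT3, which encodes CHOP, did not pass in any of these fits. It stood at 25.1, 23.6, 23.6 and 23.5 CPM untreated and 19.5, 24.8, 21.6 and 20.3 CPM with pyruvate, with pyruvate replicate 2 inside the untreated range (log2 −0.15, 95% interval −0.37 to 0.06, adjusted p = 0.302). The 15 genes of the eIF2 kinases and their upstream sensors gave 0 calls without the offset (with unadjusted p below 0.05, 0 higher and 3 lower by edgeR) and 2 falls with it, IMPACT and PPP1R15B. Proline synthesis, another known branch of the ATF4 programme, had 0 of 5 called without the offset (with unadjusted p below 0.05, 0 higher and 1 lower), and 2 fell with it, PYCR1 among them. The log2 change of PYCR1 turned from 0.09 (adjusted p = 0.633) to −0.20 (adjusted p = 0.00520) under the offset.

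Promoters of the falling genes were searched for the core of the C/EBP-ATF response element, TGATGNAA on either strand, in the 250 bases before each start (RefSeq, GRCh38.p14). It was in 6 of 97 falling genes with a promoter in the table (6.2%), in 0 of 103 rising genes and in 141 of 9938 genes tested (1.4%). The 6 are shown because they are the falling genes that carry this core, with the match in capitals.
ASNS (chr7:97872429-97872516, - strand): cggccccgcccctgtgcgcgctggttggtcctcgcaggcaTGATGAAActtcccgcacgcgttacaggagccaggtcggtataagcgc
ATF3 (chr1:212565176-212565263, + strand): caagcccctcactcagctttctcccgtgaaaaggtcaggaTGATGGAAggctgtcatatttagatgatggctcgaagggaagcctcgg
CHAC1 (chr15:40953222-40953309, + strand): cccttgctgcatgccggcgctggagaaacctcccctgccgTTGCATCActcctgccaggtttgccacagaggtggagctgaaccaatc
MTHFD1L (chr6:150866317-150866404, + strand): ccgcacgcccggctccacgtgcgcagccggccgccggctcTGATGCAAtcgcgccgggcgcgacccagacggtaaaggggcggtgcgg
HERPUD1 (chr16:56931926-56932013, + strand): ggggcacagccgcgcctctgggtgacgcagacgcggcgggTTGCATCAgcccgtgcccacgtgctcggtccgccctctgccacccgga
BCAT1 (chr12:24949102-24949189, - strand): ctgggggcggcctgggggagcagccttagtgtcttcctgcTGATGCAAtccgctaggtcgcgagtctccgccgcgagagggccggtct
In CHAC1 and HERPUD1 the core lies on the opposite strand, so the capitals show its reverse complement. The match in ASNS lies 68 to 61 bases before the start and that in BCAT1 48 to 41 bases before it. A match describes these letters only and shows no binding. The longer carbohydrate response element, searched by name on both strands, was in 13 of 9938 promoters tested (0.1%). TXNIP, described next, is 1 of them, with the element in capitals.
TXNIP (chr1:145996611-145996707, - strand): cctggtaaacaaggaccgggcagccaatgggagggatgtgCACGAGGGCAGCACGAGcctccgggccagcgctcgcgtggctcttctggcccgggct

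Of 9 genes of the glucose-sensing factor MondoA, its partners and known targets, 3 fell. TXNIP, which binds thioredoxin and restrains glucose uptake (chromosome 1, 145992435 to 145996600), stood at 209.5, 205, 197 and 196 CPM in untreated libraries and 135, 139, 115 and 113 CPM with pyruvate. The groups do not overlap, and the fall was 1.61-fold without and 1.501-fold with the offset (adjusted p = 0.00115 and 5.11e-06). Its relative ARRDC4 gave 30.0, 36.4, 28.6 and 31.5 against 24.7, 20.9, 22.0 and 18.5 CPM, and KLF11 25.8, 28.3, 22.5 and 27.8 against 18.8, 21.5, 17.4 and 19.4 CPM. Both fell (log2 −0.56 and −0.44, adjusted p = 0.0404 and 0.0452), and neither was called in replicates 1 and 2 alone (adjusted p = 0.146 and 0.165). No other gene of the list was called with or without the offset, and its median log2 change was −0.32. KLF10 stood at 21.1 ± 1.81 against 16.9 ± 2.16 CPM (SD, n = 4, adjusted p = 0.0891).

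Some erythroid genes gave small falls. HBG2, a fetal globin gene, stood at 5456, 5171, 5348 and 4805 CPM untreated and 4280, 4345, 4033 and 3808 CPM with pyruvate, so all pyruvate libraries were below all untreated ones (log2 −0.34, SE 0.0595, adjusted p = 0.0206). HBG1, a near-identical copy between which reads may be divided, gave 3343, 3059, 3250 and 2842 against 2530, 2731, 2473 and 2347 CPM (log2 −0.31, adjusted p = 0.0489), and neither was called in replicates 1 and 2 alone (adjusted p = 0.0846 and 0.204). The embryonic HBE1 stood at 2140 ± 71.1 against 1904 ± 116 CPM (adjusted p = 0.0837), and was called lower with the offset (log2 −0.23, adjusted p = 0.0398). HBA2, an adult alpha globin gene whose transcripts have a GC content of 67.3%, stood at 510.1 and 504 CPM in pyruvate replicates 3 and 4, 232 and 151 CPM in replicates 1 and 2 and 119 to 219 CPM untreated. HBA2 also shares most of its sequence with HBA1, so its value is uncertain.

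Around the globins, ALAS2, the first enzyme of haem synthesis in red cells, stood at 78.5, 74.7, 83.9 and 73.7 CPM against 55.7, 66.0, 64.2 and 62.9 CPM. All 4 pyruvate values were lower (log2 −0.32, adjusted p = 0.0406), and without replicates 3 and 4 it was not called (adjusted p = 0.0622). ABCB10, a mitochondrial carrier of haem-making cells, fell 1.43-fold (adjusted p = 0.0374). CA1, carbonic anhydrase 1, gave 19.9, 19.6, 21.3 and 20.8 against 11.1, 14.7, 12.5 and 11.5 CPM, a 1.64-fold fall (adjusted p = 0.00474), which was also called in replicates 1 and 2 alone (adjusted p = 0.0269). The Rh blood group genes RHD and RHCE fell 1.35- and 1.48-fold (adjusted p = 0.0227 and 0.0317), and as near-identical copies their shares are uncertain. The Kell-linked XK fell 1.41-fold (adjusted p = 0.0448). In all, 2 of 9 globins, 2 of 18 haem and iron genes, 4 of 24 red cell membrane genes and 1 of 15 erythroid transcription factors fell, and 0 rose. With the offset 3, 6, 5 and 4 fell, while HBA2 and KLF1 rose. In replicates 1 and 2 alone 0, 0, 2 (RHD and CA1) and 2 (TAL1 and RUNX1) fell, and 0 rose. The median log2 changes of the 4 lists were −0.12, −0.08, −0.05 and −0.04, against −0.01 over all genes tested. In these lists 3, 6, 11 and 6 estimates were above 0.

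The transcription factor that fell without the offset was RUNX1, which opposes erythroid and favours megakaryocytic fate. It stood at 106, 115, 109 and 104 CPM untreated and 88.7, 78.5, 71.7 and 77.8 CPM with pyruvate (log2 −0.46, adjusted p = 0.00850), and was called in replicates 1 and 2 alone (adjusted p = 0.0151). GATA1, the main erythroid factor, gave 127, 153, 142 and 169.6 CPM against 142, 123, 249 and 241 CPM. Only pyruvate replicates 3 and 4 were above the untreated range, and the log2 difference was 0.35 without the offset and 0.05 with it (95% interval −0.14 to 0.23, adjusted p = 0.751). Of 8 megakaryocyte genes, 0 were called in any of the 3 fits (with unadjusted p below 0.05, 0 higher and 1 lower by edgeR without the offset).

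Several large falls belonged to none of these groups. PMAIP1, which encodes the pro-apoptotic protein NOXA, stood at 32.0, 31.2, 34.8 and 28.1 CPM untreated and 19.96, 19.4, 15.5 and 13.7 CPM with pyruvate, a 1.84-fold fall (adjusted p = 0.00489). MBNL2, a splicing regulator, fell 1.77-fold and the activation marker CD69 1.98-fold (adjusted p = 0.0209 and 0.0206). In replicates 1 and 2 alone MBNL2 was called and CD69 was not (adjusted p = 0.00869 and 0.0954). FDFT1, squalene synthase, was the only 1 of 24 cholesterol synthesis genes called without the offset. It gave 46.6, 43.7, 46.3 and 40.4 against 18.2, 18.3, 26.3 and 24.4 CPM, with its lowest values in replicates 1 and 2 (log2 −1.02, adjusted p = 0.0206, and 0.0132 in those 2 alone). The median log2 change of that list was 0.07, and 14 of its 24 estimates were above 0. DUS4L-BCAP29, a read-through gene whose reads may belong to its neighbours, fell 2.03-fold (adjusted p = 0.0469), and was not called in replicates 1 and 2 alone (adjusted p = 0.145).

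**Figure D3:**
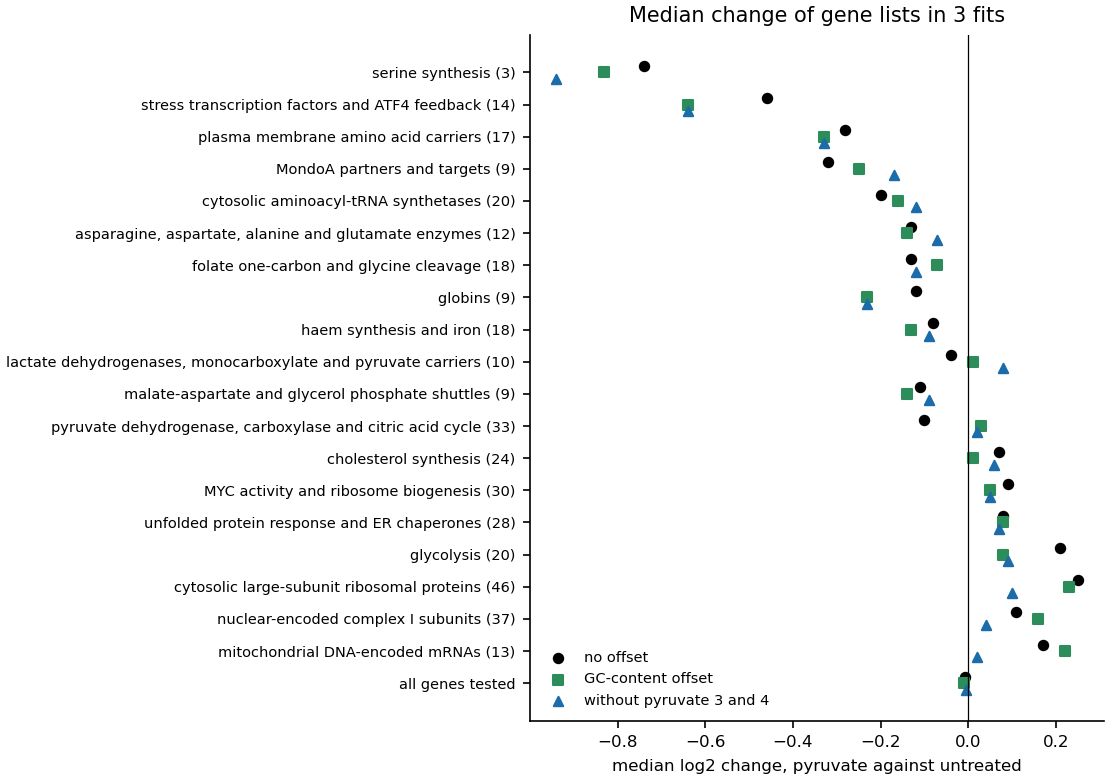
The x axis gives the median log2 change, pyruvate against untreated, of 19 gene lists (number of genes tested in brackets) and of all genes tested, in 3 fits. Circles are the fit without an offset, squares the fit with the GC-content offset and triangles the fit without pyruvate replicates 3 and 4. The serine synthesis list lies between −0.94 and −0.74 and the stress factor list between −0.64 and −0.46 in the 3 fits, while the ribosomal protein list goes from 0.25 to 0.10 and complex I from 0.11 to 0.04 when replicates 3 and 4 are left out.

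The ER genes moved in both directions. Of 28 tested, 6 rose and 2 fell, and with the GC-content offset 10 rose and 2 fell. The rises were chaperones and folding enzymes. CALR, calreticulin, stood at 483, 508, 480.3 and 530.1 CPM untreated and 563, 607, 749.6 and 719.7 CPM with pyruvate. All pyruvate values were above all untreated ones (log2 0.40, SE 0.0828, adjusted p = 0.0374), and in replicates 1 and 2 alone the change was 0.23 (adjusted p = 0.0765). DNAJB11, a co-chaperone of BiP, gave 60.6, 59.9, 59.6 and 63.4 against 70.6, 79.6, 85.5 and 79.0 CPM (log2 0.37, adjusted p = 0.0206) and was called in replicates 1 and 2 alone (adjusted p = 0.0421). The disulfide isomerases PDIA3 and PDIA4 rose 1.21- and 1.28-fold and the secreted factor MANF 1.64-fold (adjusted p = 0.0482, 0.0329 and 0.0441). None of these 3 was called in replicates 1 and 2 alone, where DNAJB11 and HSP90B1 were the only rises of the list.

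CANX, calnexin, had the largest estimate of the list. It stood at 6.999, 5.94, 8.62 and 11.5 CPM untreated, 15.0 and 16.9 CPM in pyruvate replicates 1 and 2 and 43.2 and 37.9 CPM in replicates 3 and 4 (log2 1.77, adjusted p = 0.0329). Without replicates 3 and 4 it was not called (log2 0.95, adjusted p = 0.137). The offset added HSPA5 (BiP), HSP90B1, HYOU1 and DERL1. HSPA5 gave 512, 514, 515 and 497 against 576, 569.9, 536 and 492 CPM, and HSP90B1 688, 732, 722 and 743 against 882, 903, 699.9 and 640.2 CPM. In both, replicates 1 and 2 were above the untreated range and replicate 4 was below it, and the log2 changes with the offset were 0.14 and 0.27 (adjusted p = 0.0439 and 0.0141).

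The 2 falls of the ER list were regulators and not chaperones. XBP1, the transcription factor activated by IRE1 splicing, stood at 108, 116, 114 and 112 CPM untreated and 88.0, 85.4, 78.5 and 77.7 CPM with pyruvate. HERPUD1, an adaptor of ER-associated degradation that is also a known ATF4 target, gave 40.7, 36.8, 39.8 and 33.96 against 23.9, 26.1, 26.5 and 23.9 CPM. Groups do not overlap for either gene, the falls were 1.36- and 1.51-fold (adjusted p = 0.00363 and 0.00407), and both were called in replicates 1 and 2 alone (adjusted p = 0.00326 and 0.0118). The ER stress response element, searched by name on both strands, was in 14 of 9938 promoters tested (0.1%) and in 6 of 25 of this list. It is shown, in capitals, for CANX, which rose, and for XBP1, which fell.
CANX (chr5:179698738-179698836, + strand): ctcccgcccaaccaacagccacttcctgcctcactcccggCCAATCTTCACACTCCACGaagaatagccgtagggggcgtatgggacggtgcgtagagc
XBP1 (chr22:28800570-28800661, - strand): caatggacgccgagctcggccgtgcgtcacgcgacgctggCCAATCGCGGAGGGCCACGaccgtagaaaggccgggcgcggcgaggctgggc
CALR, which rose, holds the element too.

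**Figure D4:**
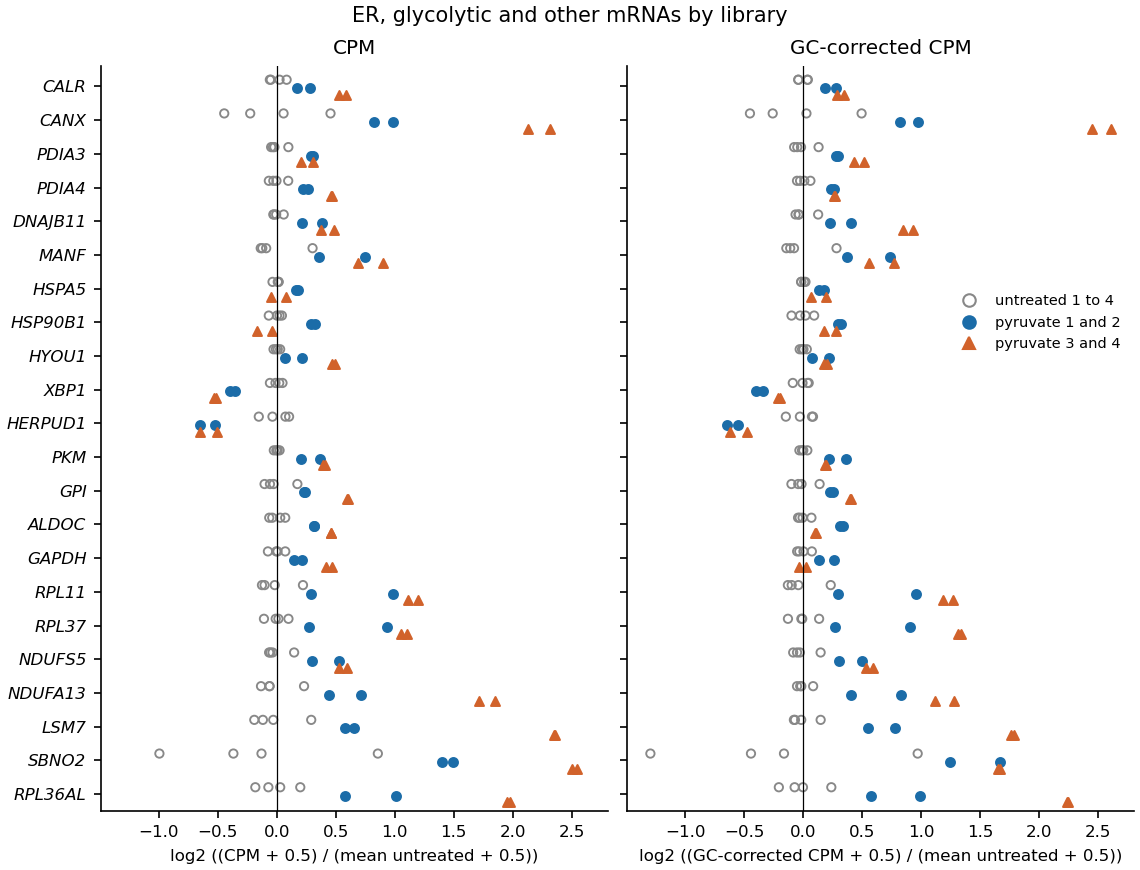
The x axes give the log2 ratio of each library to the mean of the untreated libraries for 22 ER, glycolytic, ribosomal, complex I and other mRNAs, from CPM (left) and GC-corrected CPM (right), each plus 0.5. Open circles are untreated libraries, filled circles pyruvate replicates 1 and 2, triangles replicates 3 and 4. XBP1 and HERPUD1 lie left of 0 in all pyruvate libraries, and CANX, LSM7 and RPL36AL lie further right in replicates 3 and 4 than in 1 and 2 on both scales.

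A few glycolytic mRNAs rose. Of 20 tested, 4 rose (PKM, ALDOC, GPI and GAPDH) and 0 fell, and 18 estimates were above 0, with a median log2 change of 0.21 without and 0.08 with the offset. PKM, pyruvate kinase, stood at 498, 508, 491 and 502 CPM untreated and 576, 646, 657 and 663 CPM with pyruvate. The groups do not overlap, and the log2 change was 0.35 over 4 libraries and 0.29 in replicates 1 and 2 alone (adjusted p = 0.0115 and 0.0326). The aldolase gene ALDOC gave 58.9, 56.2, 55.2 and 60.7 against 71.8, 72.1, 79.7 and 79.7 CPM, and the isomerase gene GPI 288, 304, 298 and 349.6 against 366, 364, 469 and 472 CPM (adjusted p = 0.0206 and 0.0485). GAPDH lost its call with the offset (log2 0.32 to 0.10, adjusted p = 0.0406 to 0.279). With the offset ALDOA and TPI1 were called as well. In replicates 1 and 2 alone PKM was the only 1 of the 20 called.

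mRNAs of ribosomal proteins and the respiratory chain rose in small part. Of 46 large-subunit ribosomal protein genes, 6 rose and 0 fell, and with the offset 17 rose and 2 fell (RPL17 and RPLP0). RPL11 stood at 394, 371, 365 and 465 CPM untreated and 489, 792, 913 and 861 CPM with pyruvate, and RPL37 at 352, 346, 323 and 373 against 419.8, 665, 748 and 725 CPM. In both, pyruvate replicate 1 was the lowest of its group and still above the untreated range (log2 0.94 and 0.88, adjusted p = 0.0206 and 0.0206). RPL36 did not pass the check in replicates 1 and 2, with 98.1 and 141 CPM there, 337 and 314 CPM in replicates 3 and 4 and 74.4 to 98.8 CPM untreated. In replicates 1 and 2 alone RPL11 and RPL37 had adjusted p = 0.0792 and 0.0839, and the median log2 change of the 46 went from 0.25 to 0.10. Ribosomal protein genes have many processed pseudogenes, so their counts may be shared.

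Of 37 nuclear-encoded complex I subunits, 2 rose (NDUFS5 and NDUFA13) and 1 fell (NDUFB2), and with the offset 10 rose and NDUFAB1 fell. NDUFS5 stood at 132, 135, 133 and 153 CPM untreated and 170.0, 199, 209 and 199.8 CPM with pyruvate, and was called in replicates 1 and 2 alone (log2 0.42, adjusted p = 0.0389). NDUFA13 gave 51.3 and 62.0 CPM in replicates 1 and 2 and 136 and 124 CPM in replicates 3 and 4, against 34.2 to 44.2 CPM untreated. The fall of NDUFB2 was lost with the offset (adjusted p = 0.117). Of 35 subunits of complexes III and IV and ATP synthase, 2 rose, UQCR10 and ATP5MF (1.47- and 1.89-fold, adjusted p = 0.0294 and 0.0222), and 7 rose with the offset, while in replicates 1 and 2 alone UQCR10 and ATP5MF had adjusted p = 0.101 and 0.0682. MT-ND5, encoded by mitochondrial DNA, gave 1402, 1757, 1631 and 1884 against 2304, 2381, 2601 and 2932 CPM and was the only 1 of 13 such mRNAs called (adjusted p = 0.0206). In replicates 1 and 2 alone 0 of the 13 were called. HSPE1, the mitochondrial co-chaperonin, stood at 111, 109, 104 and 112 CPM against 127, 148, 174 and 169 CPM (log2 0.51, adjusted p = 0.0206). HSPE1 was not called in replicates 1 and 2 alone. Its partner HSPD1, from the same bidirectional locus, stood at 963 ± 25.1 against 902 ± 67.8 CPM (adjusted p = 0.267). HSPD1 was named after its value was seen.

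Many of the larger rises were carried unevenly by the pyruvate libraries. Among genes with a symbol and at least 5 CPM that passed both checks, the 15 largest were SBNO2, CANX, LSM7, RPL36AL, EDF1, OST4, NDUFA13, TMSB10, PET100, C11orf98, CDC37, CALML4, GAGE13, RAB13 and NEDD8. LSM7, a subunit of the U6 and mRNA decay Lsm rings, stood at 17.3, 19.4, 18.2 and 24.4 CPM untreated, 29.9 and 31.5 CPM in pyruvate replicates 1 and 2 and 103 and 103 CPM in replicates 3 and 4. On the GC-corrected scale the values were 20.5 to 24.0 untreated, 31.9 and 37.5 in replicates 1 and 2 and 76.1 and 74.5 in replicates 3 and 4, so the split remained. SBNO2, a transcriptional co-regulator, ranged from 5.61 to 21.6 CPM among untreated libraries and stood at 31.7, 33.9, 68.5 and 70.7 CPM with pyruvate. RPL36AL was the only gene of the 15 called in replicates 1 and 2 alone, with 31.7, 43.0, 84.5 and 83.0 CPM against 18.6 to 24.3 CPM untreated (log2 1.52 over 4 libraries and 0.82 over replicates 1 and 2, adjusted p = 0.0206 and 0.0196). GAGE13 belongs to a near-identical family, and NEDD8 and NDUFA13 overlap read-through genes, so their counts are uncertain.

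Over the 128 rises that passed both checks, replicates 3 and 4 were higher than 1 and 2 on average in 124, and in 110 on the GC-corrected scale. Over the 115 falls replicates 3 and 4 were lower on average in 85, and in 73 on the corrected scale. What set replicates 3 and 4 further out was not tested. The GC-corrected scale makes no correction for transcript length, along which these libraries also differed. The 7 rises called in replicates 1 and 2 alone were PKM, NDUFS5, DNAJB11, RPL36AL, CHCHD3 and 2 genes with no symbol. CHCHD3, a subunit of the mitochondrial inner membrane organising complex that was named after its values were seen, stood at 123, 118, 122 and 125 CPM against 143, 165, 166 and 160.5 CPM. ENSG00000275619, for which the tables used here give no name, stood at 0.0551, 0, 0 and 0 CPM untreated, 11.1, 6.25, 9.14 and 13.2 CPM with pyruvate and 4.24, 1.24, 4.28 and 9.69 CPM with AKB (pyruvate against untreated, adjusted p = 0.000383). It was at 0 in 3 untreated libraries, near 0 in untreated replicate 1 and above these in every treated library, so it passed the filter through the treated groups only.

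The lactate dehydrogenases and the carriers of pyruvate gave no calls. Of 10 tested lactate dehydrogenases, monocarboxylate carriers and mitochondrial pyruvate carriers, 0 were called without the offset, with it or in replicates 1 and 2 alone (with unadjusted p below 0.05, 2 higher and 2 lower by edgeR). LDHA stood at 1013, 1009, 1007 and 944 CPM untreated and 1067, 1091, 883 and 829 CPM with pyruvate. Replicates 1 and 2 lay above and replicates 3 and 4 below the untreated range, and the log2 change was −0.04 (95% interval −0.21 to 0.14, adjusted p = 0.758). LDHB gave 778, 719, 746 and 717 against 745, 818, 691 and 634 CPM (log2 −0.04, −0.19 to 0.12, adjusted p = 0.748). The carrier SLC16A1 (MCT1) stood at 354 ± 23.8 against 293 ± 48.1 CPM (log2 −0.17 with the offset, −0.29 to −0.04, adjusted p = 0.0878). The carrier subunits MPC1 and MPC2 had log2 changes of −0.24 and 0.42 with the offset (adjusted p = 0.141 and 0.0614).

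Enzymes that take pyruvate into the citric acid cycle gave few calls. Of 33 genes of pyruvate dehydrogenase, carboxylation and the cycle, 2 rose and PCK2 fell, and with the offset 4 rose and 2 fell. IDH3G, a subunit of isocitrate dehydrogenase, rose without the offset (log2 0.35, adjusted p = 0.0490) and lost its call with it (adjusted p = 0.605). PDHA1, a subunit of pyruvate dehydrogenase, gave 163, 166, 155 and 168 against 173, 209, 202 and 196 CPM (log2 0.30 with the offset, adjusted p = 0.0133, and 0.0592 without it). Pyruvate carboxylase, PC, stood at 46.9 ± 1.84 against 50.7 ± 4.47 CPM (log2 0.11, −0.05 to 0.28). Of 9 malate-aspartate and glycerol phosphate shuttle genes, 0 were called in the 3 fits (with unadjusted p below 0.05, 1 higher and 2 lower). The shuttle genes MDH1, GOT2 and SLC25A12 had log2 changes of −0.18, −0.16 and −0.07 with the offset (adjusted p = 0.0846, 0.214 and 0.417). GOT1 was called lower with the offset (log2 −0.21, adjusted p = 0.0337, and 0.241 without it). GOT1 and MDH1 were counted in other lists and are not among the 9 shuttle genes.

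Several other programmes gave few or no calls without the offset. In these lists 0 genes were called for DNA replication (of 34), mitosis (of 24), nucleotide synthesis (of 17), the pentose phosphate pathway (of 10), NAD synthesis with sirtuins (of 16), fatty acid synthesis (of 16) and the interferon response (of 12). At an unadjusted p below 0.05 they held 4, 5, 2, 3, 4, 4 and 5 higher genes and 3, 5, 2, 2, 2, 2 and 1 lower genes by edgeR. Over all 13598 genes tested, 2035 were higher and 1892 lower at that threshold. With the offset, 0 to 3 genes were called in either direction in each. Of 18 HIF targets, DDIT4 and MXI1 fell, and of 16 NRF2 targets, SLC7A11 fell. Of 16 immediate early genes, ATF3 and CD69 fell, and JUN, IER2 and DUSP1 were added with the offset.

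AKB has the 2-oxo acid structure of pyruvate with 1 methylene group more, and both were given at the same dose for the same time, which lets their mRNA levels be compared directly in this 1 pair. Of 13598 genes, 162 (1.19%) were higher and 264 (1.94%) lower with pyruvate than with AKB, and 1140 (8.38%) and 875 (6.43%) with the GC-content offset. Pyruvate replicates 3 and 4 enter this contrast too, and with both left out 257 genes were higher and 351 lower. Without pyruvate replicate 3 or 4 the counts were 15 and 22 higher and 97 and 101 lower, without pyruvate replicate 1 or 2 they were 947 and 1189 higher and 823 and 922 lower, and without any 1 of the AKB libraries 7 to 21 higher and 61 to 106 lower. Among genes with a symbol and at least 5 CPM that were called both without and with the offset, the 5 largest differences below AKB were those of SULT1A4, PAQR8, UBE2L6, LAPTM5 and ERBB3. LAPTM5, which encodes a protein of lysosome membranes, stood at 17.1, 17.7, 13.5 and 12.04 CPM with pyruvate, 36.1, 35.5, 32.3 and 32.7 CPM with AKB and 16.8, 17.6, 15.7 and 15.2 CPM untreated. The pyruvate and untreated values overlap and AKB was above both (pyruvate against AKB log2 −1.18, adjusted p = 0.00123). SULT1A4 has a near-identical copy, and its AKB values ran from 2.63 to 11.7 CPM. By the same rule the 5 largest above AKB were CANX, LSM7, RPL36AL, PET100 and RABEP2, the first 4 of them among the uneven rises above.

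Some erythroid mRNAs differed between the compounds. HBE1 stood at 1852, 2068, 1898 and 1799 CPM with pyruvate and 3021, 2765, 2782 and 2889 CPM with AKB, with untreated libraries at 2072 to 2240 CPM (pyruvate against AKB log2 −0.59, 95% interval −0.70 to −0.48, adjusted p = 0.000720). HBG2 was 1.29-fold, RHD 1.42-fold and CA1 1.74-fold lower with pyruvate than with AKB (adjusted p = 0.0107, 0.00993 and 0.00314). In total 3 of 9 globins and 3 of 24 red cell membrane genes were lower with pyruvate than with AKB and 0 and 1 higher, and with the offset 4 and 8 were lower and 0 and 2 higher. AKR1C3, an aldo-keto reductase named after its values were seen, was 1.88-fold lower with pyruvate (adjusted p = 0.00197).

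Among the amino acid genes, ALDH1L2 and CTH were lower with pyruvate than with AKB (log2 −0.53 and −0.34, adjusted p = 0.0159 and 0.0461), and CTH was not called with the offset (adjusted p = 0.0516). SLC7A11 and ASNS were called only with the offset (log2 −0.25 and −0.25, adjusted p = 0.00954 and 0.0353). For ATF4 the difference was 0.01 with the offset (95% interval −0.10 to 0.13, adjusted p = 0.911), for TXNIP 0.07 (−0.01 to 0.16, 0.232) and for PSAT1 −0.11 (−0.19 to −0.03, 0.0551). DDIT4 was higher with pyruvate than with AKB with the offset (log2 0.33, adjusted p = 0.0342), its replicates 1 and 2 at 65.7 and 58.3 CPM beside 59.1 to 65.9 CPM with AKB and replicates 3 and 4 above both. Of the 14 stress factor genes, 2 were higher and 0 lower with pyruvate than with AKB with the offset. Over all genes tested 8.38% were higher in that fit, so 2 of 14 says little about the list.

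Part of the ribosome biogenesis genes were higher with pyruvate than with AKB. Of 30 tested, 9 were higher and 0 lower, and 20 were higher and 0 lower with the offset. Against untreated cells NOP2 rose without the offset (log2 0.41, adjusted p = 0.0406), and with it 5 rose (NCL, NPM1, FBL, NOP2 and GNL3) and BYSL fell. NCL, nucleolin, stood at 973, 1012, 1037 and 1002 CPM with pyruvate, 752, 802, 883 and 833 CPM with AKB and 813, 868, 832 and 910.3 CPM untreated. All pyruvate libraries were above all others (against AKB log2 0.30, adjusted p = 0.0208, and against untreated 0.23, adjusted p = 0.0553 without and 0.0207 with the offset). HSPE1 was 1.44-fold higher with pyruvate than with AKB (adjusted p = 0.0140), and 2 of 11 heat shock genes were higher, or 7 with the offset. PKM and LDHA differed between the compounds by log2 0.00 and 0.11 with the offset (95% intervals −0.10 to 0.10 and 0.02 to 0.19, adjusted p = 0.963 and 0.0960).

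**Figure D5:**
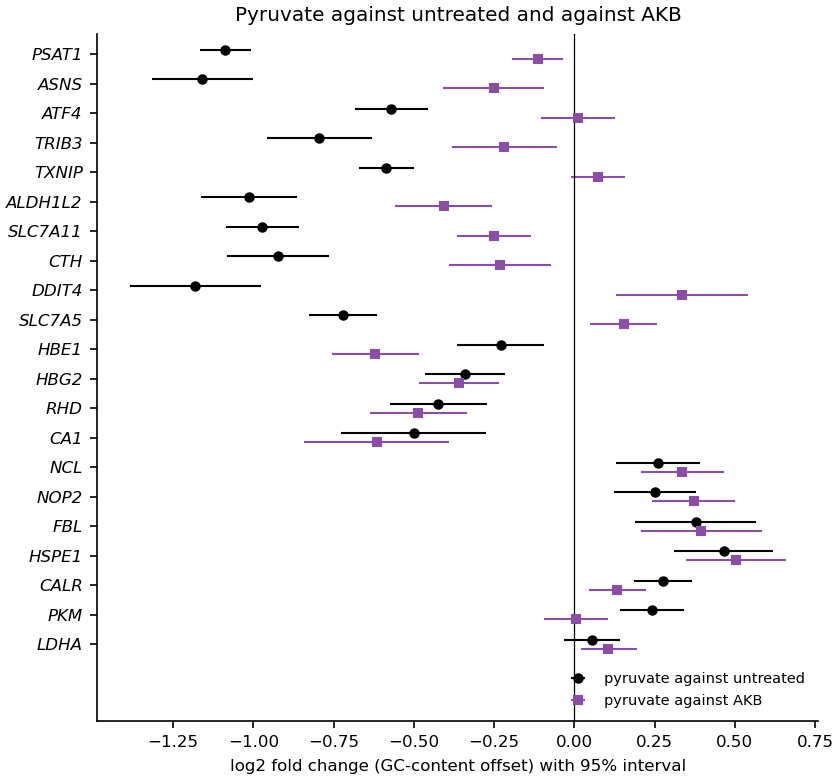
The x axis gives the log2 fold change with its 95% interval, both with the GC-content offset, for 21 genes. Circles compare pyruvate with untreated cells and squares compare pyruvate with AKB. Squares of ATF4 and TXNIP lie near 0 while their circles lie below −0.5, and HBE1 lies further below 0 against AKB than against untreated cells.

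The authors' deposited table for untreated against pyruvate lists 875 genes higher and 598 lower with pyruvate at an adjusted p below 0.05. It includes 124 of the 139 rises and 108 of the 126 falls called here. In the authors' deposited table PSAT1 has a log2 difference of −1.17 for pyruvate over untreated (SE 0.069, adjusted p = 1.07e-60), and LDHA of −0.07 (adjusted p = 0.711). Its signs were turned here, since that table divides untreated by pyruvate.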

How the data were processed

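Messenger RNA of 12 K562 libraries in 3 groups of 4 (untreated, pyruvate, AKB) was compared. The authors deposited estimated counts per gene as whole numbers. Per the submitters' processing notes Salmon 1.2.1, R 3.6.3 and DESeq2 1.26.0 were used. For the genome build, the sources used here give no name. The authors' deposited tables of comparisons hold the mean signal (baseMean), log2 differences and their errors, and p-values.

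Here libraries were scaled by TMM and tested with edgeR 4.0.16 (R 4.3.3, quasi-likelihood, 1 term per group over all 12 libraries, Benjamini-Hochberg adjustment, threshold 0.05). A filter by group at a minimum count of 10 removed 4188 of 17786 genes. Taking all libraries lets the groups share 1 estimate of the spread. GC content came from the longest transcript of each gene in GENCODE 29 (GRCh38), matched by gene identifier for 95.0% of genes, and 90.3% had a symbol. The offset was a spline with 5 degrees of freedom per library, fitted over genes with a mean of at least 1 CPM. The 13598 tested genes include 13047 with GC content, and only those take part in the GC trend. The count procedure was also run on simulated counts, with less spread than these data and no trend along transcript length. That run therefore does not show how well the procedure performs on these libraries. Promoters are RefSeq sequences of GRCh38.p14, searched in the 250 bases before the start. limma 3.58.1 (voom) and DESeq2 1.42.0 were alternatives.

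Named genes were the 15 largest rises and falls among genes with a symbol that passed both checks with at least 5 CPM, up to 4 genes of each list with the smallest adjusted p, genes fixed by name for pyruvate handling, the ATF4 response and globins, and the 5 largest differences from AKB each way among genes with a symbol and at least 5 CPM called both without and with the offset. A part of the rule for large calls failing both checks named no gene. The members and gene lists were chosen with earlier results of these data known. Intervals are 95% intervals of the fit. The labels do not state that the library kit keeps strand. A few members of the lists are counted but not reported here by name.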

Additional observations from a re-analysis of the deposited data

Results flagged for a closer look

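Among the 65 genes with values by library, each in 2 groups of 4 (130 groups in all), 6 untreated values lay apart from the other 3 of their group by a gap over range above Dixon's 95% critical value, and 0 pyruvate values did. Chance gives about 1 in 20 such groups. This measure looks for 1 value apart from the other 3. It cannot flag libraries that stand apart as a pair, as pyruvate replicates 3 and 4 did. The 0 therefore does not show that the pyruvate libraries were more alike than the untreated ones. LDHA in untreated replicate 4 stood at 944.4 CPM against 1007 to 1013 in the others, and HSPA5 there at 496.9 against 512.5 to 515.1 CPM. NDUFS5 in untreated replicate 4 stood at 153.1 CPM against 132.1 to 134.8. DDIT3 in untreated replicate 1 stood at 25.13 CPM against 23.46 to 23.59, and PC there at 44.14 against 47.56 to 48.15 CPM. PSPH in untreated replicate 4 stood at 34.5 CPM against 39.73 to 40.52. AKB libraries were not examined in this way.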

How the results depend on the processing

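Counts are given as higher and lower with pyruvate than untreated, then as those passing both checks, then as higher and lower than with AKB. Some fits share libraries or the offset with these checks. For the GC-content offset fit, the offset check is the fit itself, so 457 and 498 passed only the untreated-range check. Without pyruvate replicates 3 and 4, the range check uses the same pyruvate libraries that made the calls. In these fits the counts passing both checks are therefore not like-for-like with 128 and 115. Against 139 and 126, 128 and 115, and 162 and 264, the GC-content offset gave 672 and 570, 457 and 498, and 1140 and 875. With transcript length in the offset they were 686 and 582, 444 and 481, and 1191 and 871. Without pyruvate replicates 3 and 4 they were 21 and 78, 16 and 74, and 257 genes higher than with AKB. With the offset as well, 75 genes rose, 57 of them passing both checks, and 649 and 412 differed from AKB. No filter on low counts gave 73 and 79, 70 and 75, and 69 and 145. DESeq2's Wald test gave 1119 and 745, 312 and 330, and 893 and 648. limma-voom gave 90 rises, 82 of them passing both checks, and library size alone gave 93 genes higher than with AKB. The 8 libraries of each contrast alone gave 2 and 14, 2 and 14, and 0 and 6, or with the offset 274 and 262, 226 and 243, and 636 and 560. The cause of these moves was not tested.

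Leaving out 1 library gave 1 to 1931 rises and 31 to 1680 falls, 1 to 311 and 31 to 327 passing both checks, and 7 to 1189 and 61 to 922 against AKB. With the GC-content offset, chosen for this after seeing the data, it gave 188 to 1122 rises and 215 to 1045 falls. The replicate block gave 306 and 259, with 195 and 191 passing both checks, and with the offset 757 and 672, 417 and 450, and 1158 and 849. Replicate numbers are not said to pair libraries. Same-numbered untreated and pyruvate libraries deviated with correlations from −0.107 to 0.205, and 0 of 4 correlated best with their own number.

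PYCR1 changed sign, from above 0 to −0.205 with the GC-content offset, −0.204 with length added, −0.189 without pyruvate replicates 3 and 4 as well, −0.205 with the replicate block and offset, and −0.205 in the 8 libraries with the offset. Of 79 called named results, 76 kept their call with the offset, 36 without pyruvate replicates 3 and 4, 13 in the 8 libraries alone, and 0 reversed in those. The total counts per library limit the precision of genes near the filter.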

Other observations

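The GC-content offset called 541 rises and 454 falls that were not called without it. Of these, 329 rises and 383 falls also had pyruvate replicates 1 and 2 beyond the untreated range, with median transcript GC contents of 45.8% and 51.9%. Of the calls that did not pass both checks, the 11 rises had a median GC content of 60.9% and the 11 falls of 41%.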
